A study of Homo sapiens with 4 samples.

Results

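Keratins are the intermediate filament proteins of epithelial cells, and a filament needs a type I and a type II partner in equal amounts. In simple epithelia, kidney tubules among them, the main pair is the type II keratin KRT8 with the type I keratin KRT18, and ductal cells add KRT7 (type II) and KRT19 (type I). KRT10, a type I keratin, pairs with KRT1 in the suprabasal layers of the epidermis, and KRT27 is a type I keratin of the inner root sheath of the hair follicle. The transcripts of these 6 genes, KRT7, KRT8, KRT18, KRT19, KRT10 and KRT27, were followed in HEK293 cells, an established line from human embryonic kidney, through every probe that the platform annotation assigns to them by symbol or synonym. There were 7 such probes among 48701, 2 of them for KRT18, and the 6 genes stand among 19304 named on the array.

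The data are 12 Illumina bead arrays, 3 for each of 4 lines with a stably expressed transgene, 1 array per independent experiment. The AIRE1 and AIRE2 lines were 2 separate clones expressing the autoimmune regulator AIRE, a nuclear protein that in thymic epithelium turns on genes of other tissues. The AIRE-D312A line expressed AIRE with the D312A change in its first PHD finger, a domain that binds histone H3 tails. The NC line expressed yellow fluorescent protein in place of AIRE and served as control. In each line the transgene was driven by the cytomegalovirus immediate-early promoter. The mutant and the control were 1 line each, so an effect of their transgene and any other property of those cells cannot be told apart. The p-values rest on the spread among experiments with the same cells. Deposited intensities averaged 245.6 to 324.3 on an array, and 15823 to 17288 probes per array were detected (detection p under 0.01). Precision is limited by the number of arrays. AIRE itself was detected on all 9 arrays of the AIRE lines, at 8.9 ± 0.21, 8.51 ± 0.40 and 8.31 ± 0.11 log2 in AIRE1, AIRE2 and AIRE-D312A, and on no NC array (4.44 ± 0.10, SD, n = 3 each).

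The values below are log2 intensities after background correction and quantile normalisation. A probe was detected on an array at a detection p under 0.01, which on this scale lay at 4.80 to 4.96. Genes were tested where their probe was detected on all 3 arrays of at least 1 line, which 11948 genes met. Differences were called at an adjusted p under 0.05 in limma, over all genes tested. Of the 6 keratin genes, 4 met the detection rule: KRT8, KRT18, KRT10 and KRT27. KRT27 met it through the AIRE1 and AIRE2 arrays alone, so its inclusion already depended on being high there. The arrays of one replicate number varied together across lines, so the fit that blocks on replicate number is quoted wherever a call depends on it.

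**Figure D1:**
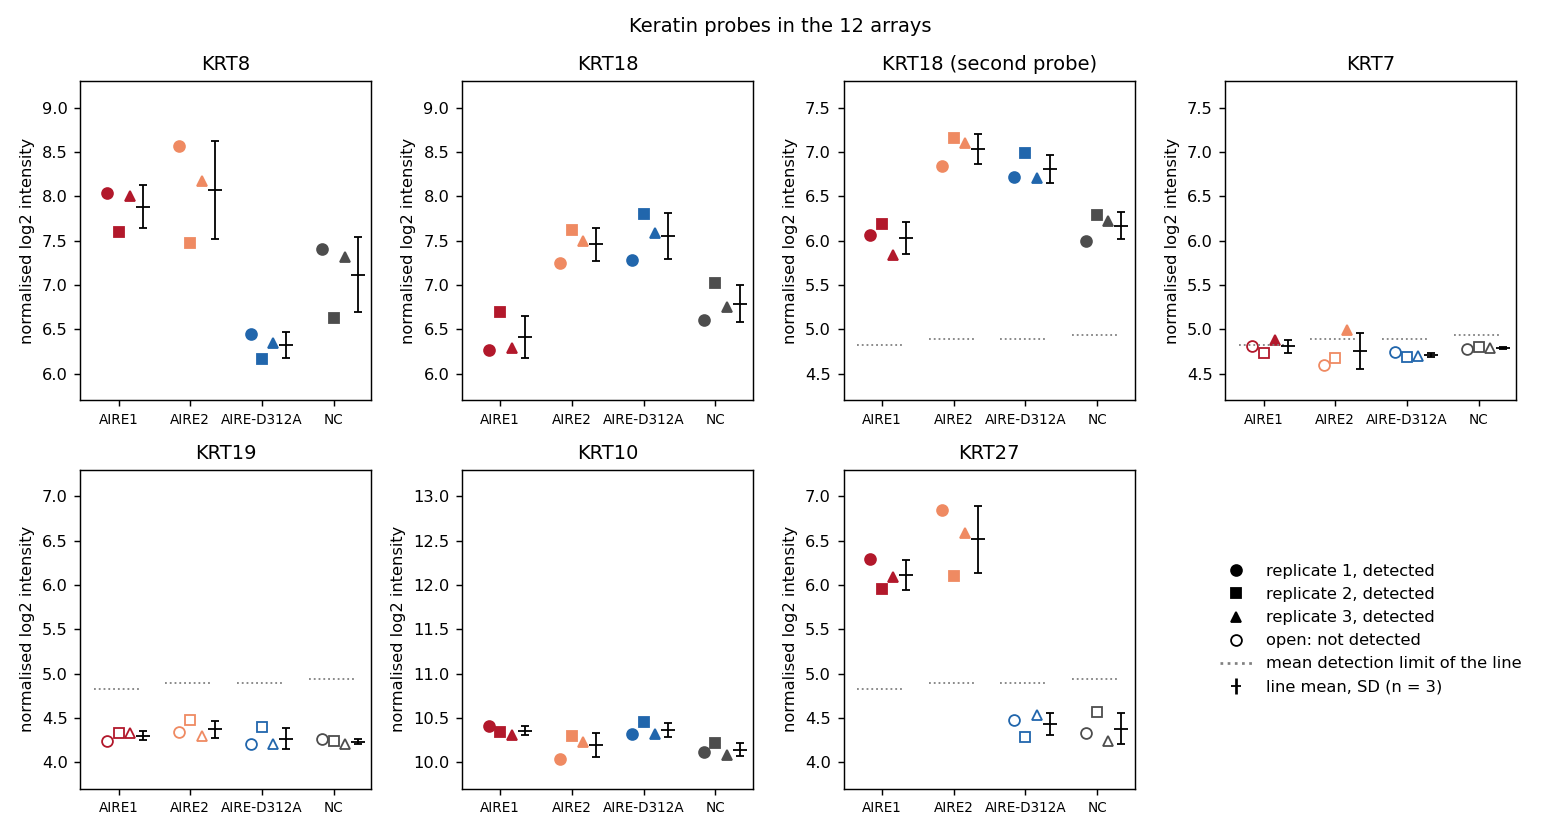
Normalised log2 intensity (vertical axis) of the 7 keratin probes on each array, by line (horizontal axis), with the line mean and SD (n = 3) to the right of the points and, where it falls in the range shown, the mean detection limit of the line dotted. All panels span the same range of log2 units: KRT8 is lowest in AIRE-D312A, KRT18 is high in AIRE2 and AIRE-D312A, and KRT27 is detected on the AIRE1 and AIRE2 arrays alone. KRT10 varies little, KRT7 lies near the detection limit and KRT19 lies below it.

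KRT8, the type II partner of the simple epithelial pair, was highest in the 2 AIRE clones and lowest in AIRE-D312A. Its log2 intensity was 8.04, 7.60 and 8.0 in AIRE1 (replicates 1, 2 and 3), 8.57, 7.47 and 8.17 in AIRE2, 6.45, 6.16 and 6.34 in AIRE-D312A and 7.40, 6.63 and 7.32 in NC. Every array of both clones lay above every NC array, and every AIRE-D312A array lay below them. The clones overlapped each other. Replicate 2 was the lowest array in each of the 4 lines, so the differences were also read within each experiment. Against NC of the same replicate, KRT8 differed by 0.65, 0.97 and 0.68 log2 in AIRE1, by 1.17, 0.84 and 0.84 in AIRE2, and by -0.94, -0.47 and -0.98 in AIRE-D312A. Each line thus kept its direction in 3 of 3 experiments.

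KRT8 rose in AIRE2 over NC by 0.95 ± 0.27 log2 (SE, n = 3), a 1.94-fold difference with limma adjusted p = 0.045. This call was narrow: it was lost in 11 of the 12 fits that left out 1 array and held without AIRE2 replicate 2. Over those 12 fits the difference was 0.71 to 1.25 log2, with limma adjusted p = 0.0043 to 0.16. The difference of AIRE1 from NC was 0.77 ± 0.27 log2 (limma adjusted p = 0.12) and that of AIRE-D312A from NC -0.80 ± 0.27 (limma adjusted p = 0.14), neither of them called. Blocking on replicate gave limma adjusted p = 0.0011, 0.00024 and 0.0016 in AIRE1, AIRE2 and AIRE-D312A, so that all 3 were called. Set against the mutant line, KRT8 was higher in AIRE1 by 1.56 ± 0.27 log2 (2.96-fold, limma adjusted p = 0.0097) and in AIRE2 by 1.75 ± 0.27 log2 (3.37-fold, limma adjusted p = 0.0069). The AIRE1 call was lost without AIRE1 replicate 1 (1.49 log2, limma adjusted p = 0.059) and without AIRE-D312A replicate 2 (1.48 log2, limma adjusted p = 0.053). AIRE2 differed from AIRE1 by 0.19 log2, with a 95% interval of -0.40 to 0.77. In order of mean level the lines ran AIRE2, AIRE1, NC and AIRE-D312A, and no difference between neighbours in this order was called without the block.

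KRT18, the type I partner, followed another order. Its brighter probe read 6.26, 6.69 and 6.29 in AIRE1, 7.25, 7.62 and 7.5 in AIRE2, 7.28, 7.80 and 7.58 in AIRE-D312A and 6.60, 7.02 and 6.75 in NC (replicates 1, 2 and 3). The AIRE2 and AIRE-D312A arrays overlapped each other and lay above all NC arrays, whereas AIRE1 was the lowest line and overlapped NC. Replicate 2 was the highest array in each of the 4 lines. KRT18 rose in AIRE2 by 0.67 ± 0.17 log2 over NC (1.59-fold, limma adjusted p = 0.03) and in AIRE-D312A by 0.76 ± 0.17 (1.70-fold, limma adjusted p = 0.028). Each of these calls was lost in 4 of the 12 fits that left out 1 array. For AIRE2 they were the fits without AIRE2 replicates 2 and 3 (0.58 and 0.65 log2) and without NC replicates 1 and 3 (0.57 and 0.65). For AIRE-D312A they were those without its replicates 2 and 3 (0.64 and 0.75) and without NC replicates 1 and 3 (0.67 and 0.75). In AIRE1 KRT18 stood at -0.38 ± 0.17 log2 from NC, which was not called (limma adjusted p = 0.24). Blocking on replicate brought it to adjusted p = 0.0038 in limma.

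The lines carrying wild-type AIRE differed from each other in KRT18. It was higher in AIRE2 than in AIRE1 by 1.04 ± 0.17 log2 (2.06-fold, limma adjusted p = 0.0092), with 0.99, 0.93 and 1.21 within the 3 experiments. Without AIRE1 replicate 1 the difference was 0.97 log2 with adjusted p = 0.055 in limma. AIRE1 also lay below the mutant line, by -1.14 ± 0.17 log2 (limma adjusted p = 0.0044), while AIRE2 differed from it by -0.10 log2 with a 95% interval of -0.47 to 0.28.

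The second KRT18 probe read 6.06, 6.19 and 5.84 in AIRE1, 6.84, 7.16 and 7.10 in AIRE2, 6.72, 6.99 and 6.71 in AIRE-D312A, and 6.0, 6.29 and 6.22 in NC. Tested over all 16266 probes past the detection rule, it was higher than in NC by 0.86 ± 0.13 log2 in AIRE2 (limma adjusted p = 0.0018) and by 0.64 ± 0.13 in AIRE-D312A (limma adjusted p = 0.021). The probes parted in AIRE1, where the second one differed from NC by -0.14 ± 0.13 log2 (limma adjusted p = 0.66) and by 0.06, -0.10 and -0.37 within the experiments, against -0.34, -0.33 and -0.46 for the brighter probe. Over the 12 arrays the readings of the KRT18 probes correlated at r = 0.94, as a description of probes that share arrays.

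Whether the partners moved the same way depended on the line. Relative to NC of the same replicate and with the brighter KRT18 probe, both were higher in AIRE2 in 3 of 3 experiments. In AIRE1 KRT8 was higher and KRT18 lower in 3 of 3, with neither called without the block and with the second KRT18 probe at 0.06 in replicate 1. In AIRE-D312A KRT8 was lower and KRT18 higher in 3 of 3. The change of KRT8 less that of KRT18 was 0.99, 1.30 and 1.14 log2 in AIRE1 and 0.52, 0.24 and 0.10 in AIRE2. In AIRE-D312A it was -1.62, -1.25 and -1.81. These are differences between changes, not between levels of the transcripts, and they carry no test.

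**Figure D2:**
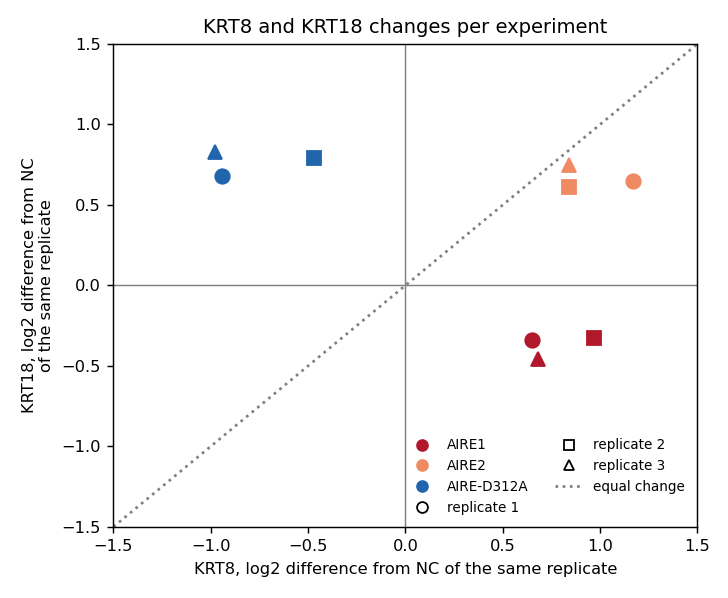
Difference from the NC array of the same replicate number for KRT8 (horizontal axis, log2) and KRT18 (vertical axis, log2, brighter probe), 1 point per experiment and line. The AIRE1 points lie at 0.65 to 0.97 for KRT8 and below 0 for KRT18, the AIRE2 points are above 0 for both, and the AIRE-D312A points lie at -0.98 to -0.47 for KRT8 and above 0 for KRT18.

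KRT8 and KRT18 are neighbours in RefSeq gene order. Both have many processed pseudogenes, and their probes can read near-identical copies, so these values are uncertain as to which copy was read. A probe annotated to the pseudogene KRT8P47 averaged 7.68 ± 0.20 log2 in AIRE1, 7.96 ± 0.50 in AIRE2, 6.14 ± 0.36 in AIRE-D312A and 7.02 ± 0.49 in NC (SD, n = 3 each). It repeated the KRT8 order and correlated with the KRT8 probe at r = 0.99 over the 12 arrays. Over NC it differed by 0.66, 0.94 and -0.88 log2 in AIRE1, AIRE2 and AIRE-D312A. These were called with the replicate block only (limma adjusted p = 0.22, 0.065 and 0.13, and 0.0034, 3e-04 and 9e-04 with the block). KRT8P47 was higher than in AIRE-D312A by 1.54 ± 0.29 log2 in AIRE1 (limma adjusted p = 0.016) and by 1.82 ± 0.29 in AIRE2 (limma adjusted p = 0.0082). A probe annotated to KRT18P31 averaged 9.55 ± 0.14 in AIRE1, 10.49 ± 0.09 in AIRE2, 10.16 ± 0.05 in AIRE-D312A and 9.41 ± 0.10 in NC (SD, n = 3 each). It was higher than in NC by 1.08 ± 0.10 log2 in AIRE2 (limma adjusted p = 3.8e-05) and by 0.76 ± 0.10 in AIRE-D312A (limma adjusted p = 0.0012), and by 0.15 ± 0.10 in AIRE1, which was not called (limma adjusted p = 0.45). A probe of KRT18P48 was detected on all 3 AIRE2 arrays, on 2 of AIRE-D312A and on none of AIRE1 or NC. It was at least 1.21-fold higher in AIRE2 than in NC (limma adjusted p = 0.018). The KRT18P31 and KRT18P48 probes correlated with the brighter KRT18 probe at r = 0.79 and 0.69 over the 12 arrays.

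The ductal keratins were barely measurable. KRT7 read 4.81, 4.73 and 4.88 in AIRE1, 4.6, 4.68 and 4.99 in AIRE2, 4.74, 4.69 and 4.70 in AIRE-D312A and 4.78, 4.80 and 4.79 in NC. It was detected on 2 of 12 arrays, replicate 3 of AIRE1 and of AIRE2, each just above the limit. KRT19 was detected on 0 of 12 arrays, with 4.24 to 4.33 in AIRE1, 4.30 to 4.48 in AIRE2, 4.20 to 4.40 in AIRE-D312A and 4.20 to 4.26 in NC. Neither gene entered the main test, and at this signal over background a difference between lines was not detectable.

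KRT27, the inner root sheath keratin, was measurable in the wild-type AIRE clones alone. Its log2 intensity was 6.29, 5.95 and 6.09 in AIRE1 and 6.85, 6.10 and 6.59 in AIRE2, with detection on 6 of 6 arrays. It was 4.48, 4.29 and 4.53 in AIRE-D312A and 4.33, 4.57 and 4.24 in NC, with detection on 0 of 6 arrays. As deposited, before any correction, the KRT27 intensities were 119, 110 and 116 in AIRE1, 165, 101 and 142 in AIRE2, 62.2, 51.2 and 64.0 in AIRE-D312A and 57.4, 64.1 and 52.5 in NC. Relative to NC, KRT27 in AIRE1 stood at least 2.26-fold higher, and in AIRE2 at least 2.98-fold higher (limma adjusted p = 8.5e-05 and 2.1e-05). Relative to AIRE-D312A, KRT27 in AIRE1 stood at least 2.32-fold higher, and in AIRE2 at least 3.07-fold higher (limma adjusted p = 0.00041 and 9.2e-05). These folds are bounds on the scale with an offset of 16, since the dimmer line was taken at the detection limit of its arrays, and they depend on that offset. The fitted differences in AIRE1 and AIRE2 over NC were 1.73 and 2.13 log2 with the offset of 16, 0.91 and 1.20 with an offset of 50, and 0.95 and 1.22 without background correction. Over AIRE-D312A they were 1.68 and 2.08 with the offset of 16, 0.89 and 1.18 with an offset of 50, and 0.89 and 1.16 without background correction. Because KRT27 entered the test through the clone arrays, its p-values against the lines where it was not detected are given as a description. AIRE-D312A differed from NC by 0.05 log2 with a 95% interval of -0.33 to 0.43, both being below the detection limit. AIRE2 differed from AIRE1 by 0.40 ± 0.17 log2, which was not called (limma adjusted p = 0.33) except without AIRE2 replicate 2 (0.61 log2, adjusted p = 0.039). Detection on all 6 clone arrays and on none of the other 6 was shared by 21 of the 11948 genes, or 0.176%. Whether more cells carried the transcript or each cell carried more of it cannot be told apart in RNA from whole cultures.

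KRT27 lies in the type I keratin cluster, and the genes beside it were read for the same pattern. In RefSeq gene order it stands between KRT26 and KRT28, with KRT24 and KRT25 on one side and KRT10, KRT12, KRT20 and KRT23 on the other. The probes of KRT24, KRT25, KRT26, KRT28, KRT12, KRT20 and KRT23 were detected on 0 of 12 arrays, while KRT10 and KRT222 were detected on all 12. KRT25, KRT26 and KRT28, the other type I keratins of the inner root sheath, were thus below the limit in every line. The 250 bases before and 50 after the annotated start are shown for KRT27 and its near neighbour KRT10 (RefSeq, GRCh38.p14, minus strand, chr17:40782501-40782800 and chr17:40822565-40822864), because one was detected in the clones alone and the other in every line. Capitals mark the letters TATAAA.
KRT27: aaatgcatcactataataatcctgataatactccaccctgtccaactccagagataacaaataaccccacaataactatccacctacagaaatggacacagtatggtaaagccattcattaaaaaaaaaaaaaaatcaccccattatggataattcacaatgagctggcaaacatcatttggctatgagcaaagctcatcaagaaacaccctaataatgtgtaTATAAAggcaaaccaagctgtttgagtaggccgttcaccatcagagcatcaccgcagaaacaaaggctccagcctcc
KRT10: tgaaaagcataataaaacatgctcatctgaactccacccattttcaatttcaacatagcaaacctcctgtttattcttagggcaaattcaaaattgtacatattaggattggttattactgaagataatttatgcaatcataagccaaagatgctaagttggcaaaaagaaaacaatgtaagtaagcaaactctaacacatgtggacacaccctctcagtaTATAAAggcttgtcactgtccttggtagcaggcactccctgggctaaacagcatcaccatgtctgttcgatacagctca
The motif TATAAA, searched on both strands, began 27 bases before the start of KRT27 and 29 bases before that of KRT10. It occurs in 11.5% of the 35116 promoter windows of this length in the table. The letters GGGCGG (45% of windows) and TGANTCA (7.71%), searched on both strands, were in neither window. KRT27 held 2 CG dinucleotides and KRT10 held 1, against a median of 14 over all windows. These are matches of letters and show no bound factor. Of the 6 genes, KRT8, KRT10 and KRT27 were matched in the table.

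KRT10, the suprabasal epidermal keratin, was bright and nearly level. Its log2 intensity was 10.41, 10.34 and 10.31 in AIRE1, 10.04, 10.30 and 10.23 in AIRE2, 10.32, 10.45 and 10.32 in AIRE-D312A and 10.12, 10.22 and 10.08 in NC. The AIRE1 and AIRE-D312A arrays all lay above the NC arrays, by a small margin, and the AIRE2 arrays overlapped them. The difference from NC was 0.22 log2 in AIRE1 (95% interval 0.01 to 0.42), 0.05 in AIRE2 (-0.15 to 0.26) and, for AIRE-D312A, 0.22 (0.02 to 0.43). No contrast was called, with or without the replicate block. In the authors' deposited table, which has 1 value a line and no test, KRT10 was below NC in all 3 lines, with differences of -0.23, -0.28 and -0.17 for AIRE1, AIRE2 and AIRE-D312A on the scale of log2 of the value plus 16. The differences fitted from the arrays, 0.22, 0.05 and 0.22 log2 in AIRE1, AIRE2 and AIRE-D312A, had limma adjusted p = 0.21, 0.82 and 0.25. KRT10-AS1, the antisense gene at this locus, averaged 10.63 ± 0.04 in AIRE1, 10.78 ± 0.13 in AIRE2, 10.73 ± 0.04 in AIRE-D312A and 10.57 ± 0.06 in NC (SD, n = 3 each) and was not called either.

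**Figure D3:**
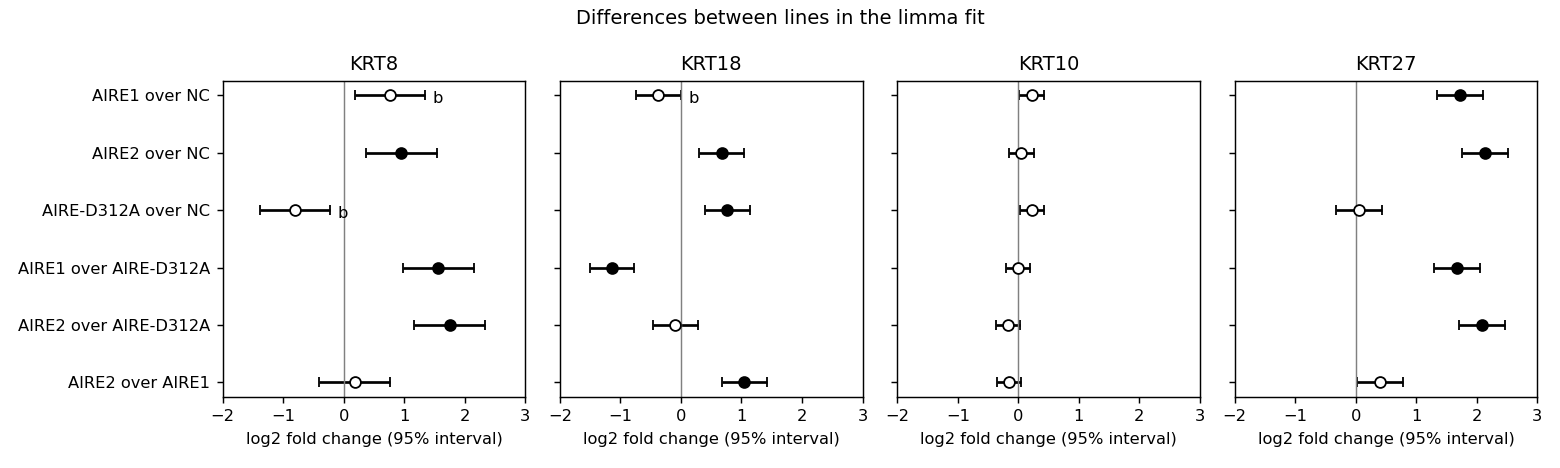
Log2 fold change with its 95% interval (horizontal axis) for the 6 contrasts between lines (rows) in the limma fit over 12 arrays, for the 4 keratin genes that met the detection rule. Filled points were called at an adjusted p under 0.05, and b marks differences called with the replicate block only: KRT8 in AIRE1 and AIRE-D312A over NC and KRT18 in AIRE1 over NC.

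Counted by contrast, 1 of the 4 keratin genes tested was called in AIRE1 over NC, where 8.27% of all genes tested were called, and 3 in AIRE2 over NC (9.46% of all genes). In AIRE-D312A over NC it was 1 (3.97%), in AIRE1 over AIRE-D312A 3 (2.34%), in AIRE2 over AIRE-D312A 2 (2.22%) and in AIRE2 over AIRE1 1 (2.30%). With the replicate block the counts over NC were 3 in AIRE1 (22.8% of all genes), 3 in AIRE2 (26.6%) and, for AIRE-D312A, 2 (16.4%). Leaving out 1 array in turn gave 1 to 2 in AIRE2 over NC, with 1 without AIRE2 replicate 3 or NC replicate 1 or 3. It gave 0 to 2 in AIRE-D312A over NC, with 0 without AIRE-D312A replicate 2 or 3 or NC replicate 1 or 3 and 2 without AIRE2 replicate 2 or NC replicate 2. In AIRE2 over AIRE1 it gave 0 without AIRE1 replicate 1 and 2 without AIRE2 replicate 2. The 3 contrasts over NC share the NC arrays, and nothing about the group is read from these counts, since KRT27 could only pass through the clones.

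Among the other 42 keratin genes named on the array, 32 were detected on no array and 6 met the detection rule: KRT1, KRT3, KRT31, KRT36, KRT80 and KRT222. KRT222, which lies at the edge of the type I cluster, averaged 7.32 ± 0.23 log2 in AIRE1, 7.43 ± 0.07 in AIRE2, 7.15 ± 0.16 in AIRE-D312A and 6.61 ± 0.14 in NC (SD, n = 3 each). It rose in all 3 AIRE lines, by 0.71, 0.81 and 0.54 log2 (SE 0.13) in AIRE1, AIRE2 and AIRE-D312A (limma adjusted p = 0.0054, 0.0022 and 0.044). Among these 6 genes the count called in AIRE-D312A, 1, was 0 in 9 of the 12 fits that left out 1 array. That KRT222 call was also lost under median centring, without background correction and without a detection filter (limma adjusted p = 0.085, 0.051 and 0.051). KRT80, a type II keratin, rose by 0.44 ± 0.10 log2 in AIRE1 (limma adjusted p = 0.02). This call was lost without AIRE1 replicate 1 or 2 or NC replicate 1 (0.38, 0.45 and 0.36 log2, limma adjusted p = 0.1, 0.056 and 0.084), with an offset of 50 (0.22 log2) and without background correction (0.2 log2). In AIRE2 the KRT80 difference was 0.33 ± 0.10 log2, called with the replicate block only (limma adjusted p = 0.066, and 0.023 with the block), and in AIRE-D312A it was 0.07 ± 0.10 (adjusted p = 0.86). The hair keratin KRT36 lay near the detection limit, with 4.78 ± 0.16 log2 and 1 of 3 arrays detected in AIRE1, and 5.27 ± 0.15 log2 and 3 of 3 arrays detected in NC (SD, n = 3 each). That contrast was called with the block only (limma adjusted p = 0.072, and 0.013 with the block). KRT1, the epidermal partner of KRT10, was detected on 8 of 12 arrays and differed from NC by 0.11, -0.05 and 0.14 log2 in AIRE1, AIRE2 and AIRE-D312A, none called. The cornea keratin KRT3 and the hair keratin KRT31 were detected on all 12 arrays and lay within 0.15 log2 of NC in every line. The median difference of these 6 genes from NC was 0.10, 0.05 and 0.07 log2 in AIRE1, AIRE2 and AIRE-D312A, beside 0.01, 0.00 and 0.00 over all genes tested.

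**Figure D4:**
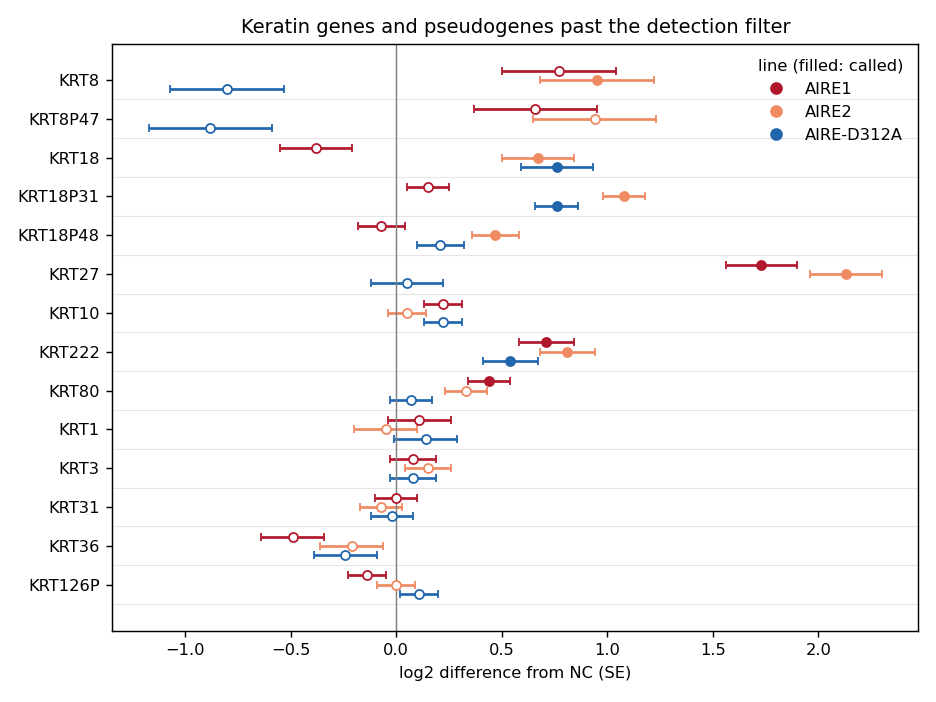
Log2 difference from NC with its SE (horizontal axis) in AIRE1, AIRE2 and AIRE-D312A for the keratin genes and keratin pseudogenes that met the detection rule (rows). Filled points were called in limma: KRT27 in both clones, KRT18 in AIRE2 and AIRE-D312A, KRT8 in AIRE2, KRT222 in all 3 lines and KRT80 in AIRE1, with KRT18P31 and KRT18P48 beside KRT18.

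Keratin filaments are anchored at desmosomes by plakins and armadillo proteins. Of 21 such linker genes named on the array, 9 met the detection rule and none was called in any of the 6 contrasts in limma. At an unadjusted p under 0.05, 3, 1 and 0 of the 9 differed from NC in AIRE1, AIRE2 and AIRE-D312A, where 20.4%, 22.5% and 15.6% of all genes did. With the replicate block, 1 linker gene rose and 1 fell over NC in AIRE1, and 1 fell in each of AIRE2 and AIRE-D312A. The block called 22.8%, 26.6% and 16.4% of all genes there. The desmoplakin gene DSP, whose product ties keratins to the desmosome, was at -0.37 ± 0.15 log2 in AIRE2 over NC (limma adjusted p = 0.16, and 0.0096 with the block). The desmosomal cadherin gene DSC3 was at -0.37 in AIRE1 over NC (0.0092 with the block) and the plakophilin gene PKP2 at 0.28 (0.024 with the block), both named after their values were seen. Median differences from NC were 0.12, 0.08 and 0.04 log2 in AIRE1, AIRE2 and AIRE-D312A. Of 8 genes for keratin-binding and keratin-associated proteins, 6 met the rule and none was called in limma (0, 0 and 2 at an unadjusted p under 0.05 in AIRE1, AIRE2 and AIRE-D312A over NC), with KRTCAP2 (keratinocyte associated protein) lowest in adjusted p, at 0.30 ± 0.11 log2 in AIRE-D312A over NC (limma adjusted p = 0.17, and 0.025 with the block). The chaperone gene DNAJB6, whose product binds KRT18, was at 0.35 ± 0.14 log2 in the same contrast (limma adjusted p = 0.25, and 0.016 with the block) and was named after its values were seen.

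Transcription factors with known roles at epithelial genes were the last group. Of 25 on the array, 19 met the detection rule. Against NC, 4 fell in AIRE1 and 1 in each of AIRE2 and AIRE-D312A, and none rose (3.06%, 3.52% and 1.32% of all genes fell). Their median difference was -0.27, -0.15 and -0.16 log2 in AIRE1, AIRE2 and AIRE-D312A. KLF4, a factor of epithelial differentiation, was lower in all 3 lines, at -0.70 ± 0.15, -0.70 ± 0.15 and -0.62 ± 0.15 log2 (limma adjusted p = 0.015, 0.014 and 0.047). The other 3 that fell in AIRE1, named after their values were seen, were TFAP2A, RARB and CDX2. TFAP2A, the AP-2 factor of surface ectoderm, fell by 1.12 on the log2 scale, RARB, a retinoic acid receptor gene, by 0.71, and CDX2, an intestinal homeobox gene, by 0.52 (limma adjusted p = 8.1e-05, 0.00077 and 0.0016). In AIRE2 over AIRE1, TFAP2A was higher by 0.75 ± 0.11 log2 and RARB by 0.46 ± 0.10 (limma adjusted p = 0.0052 and 0.033). With the block 8, 5 and 5 were called over NC in AIRE1, AIRE2 and AIRE-D312A, beside 22.8%, 26.6% and 16.4% of all genes. All of these fell except 1 in AIRE2, JUN, at 0.47 log2 (limma adjusted p = 0.17, and 0.016 with the block). JUN was named after its values were seen. Median centring left 1, 0 and 0 called over NC in AIRE1, AIRE2 and AIRE-D312A. Leaving out 1 array gave 3 to 5 in AIRE1 and 0 to 2 in each of AIRE2 and AIRE-D312A.

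Markers of the labelled and other cell types were read beside the keratins. Of 14 simple epithelial genes, 8 met the detection rule, with 5, 5 and 3 rising over NC in AIRE1, AIRE2 and AIRE-D312A (5.21%, 5.93% and 2.64% of all genes rose), and ESRP1, ESRP2, CLDN4 and ST14 were detected on no array. Their summed intensity above the negative-control mean was 927 to 1041 in AIRE1, 831 to 1521 in AIRE2, 603 to 859 in AIRE-D312A and 176 to 315 in NC. MAL2, a transport protein of polarised epithelia, was higher than in NC by 2.61, 2.68 and 2.0 log2 in AIRE1, AIRE2 and AIRE-D312A, the adhesion molecule gene EPCAM by 1.02, 2.76 and 1.68, and the protease inhibitor gene SPINT2 by 1.37, 1.76 and 1.5. Both CLDN3, for a claudin of tight junctions, and RAB25, for an epithelial GTPase, were called in AIRE1 and AIRE2 over NC and not in AIRE-D312A over NC. In NC neither was detected on any array. Directly over AIRE-D312A, CLDN3 was called in AIRE1 and AIRE2, at 0.76 and 1.02 log2 (limma adjusted p = 0.02 and 0.005). RAB25 was called there with the replicate block only, at 1.04 and 0.91 log2 (limma adjusted p = 0.17 and 0.22, and 0.0098 and 0.016 with the block). RAB25 was detected on all 3 AIRE-D312A arrays, at least 1.27-fold above NC (limma adjusted p = 0.47). Relative to NC, CLDN3 stood at least 1.55-fold higher in the AIRE1 line and at least 1.85-fold higher in the AIRE2 line, and RAB25 at least 2.61-fold and at least 2.38-fold higher. The other 3 past the rule, SPINT1, CLDN7 and MUC1, were not called over NC in any line. With the block SPINT1 and CLDN7 were called in AIRE1 alone, at 0.50 and 0.48 log2 (limma adjusted p = 0.023 and 0.0036). SPINT1 was at -0.71 log2 in AIRE2 over AIRE1 (limma adjusted p = 0.091, and 0.0063 with the block). These 3 genes were named after their values were seen. Of 12 mesenchymal genes, 7 met the rule, and 3, 1 and 1 fell (3.06%, 3.52% and 1.32% of all genes fell), with sums of 2987 to 4049, 4022 to 8174, 5238 to 6662 and 7043 to 9178 in AIRE1, AIRE2, AIRE-D312A and NC. SNAI2, a repressor of epithelial genes, fell in all 3 lines, at -0.95, -1.31 and -0.76 log2. With the replicate block, 2 mesenchymal genes rose and 3 fell in AIRE1, 1 rose and 2 fell in AIRE2, and 1 fell in AIRE-D312A. The block called 22.8%, 26.6% and 16.4% of all genes there. DCN stood at 1.2 log2 in AIRE1 and 0.91 in AIRE2 over NC, and LUM at 0.44 in AIRE1. These were called with the block only (limma adjusted p = 0.00044, 0.0029 and 0.036) and were named after their values were seen. FN1, COL1A2 and THY1 were detected on no array. The part of these shifts in the keratin results was not tested. Of 9 stratified epithelial markers 8 were detected on no array, KRT5 and KRT14 among them, and of 11 hair follicle markers 7 were. The hair follicle sums, without KRT27, were 103 to 107 in AIRE1, 71 to 101 in AIRE2, 71 to 85 in AIRE-D312A and 54 to 75 in NC, and neither of the 2 measured was called, the inner root sheath gene TCHH being lowest in adjusted p (0.46 log2 in AIRE1, limma adjusted p = 0.055, and 0.012 with the block). Of 7 blood and endothelial markers, 6 were detected on no array, and VWF was detected on the clone arrays alone. Of 11 kidney markers, PAX2, PAX8, AQP2, SLC12A1, NPHS1 and CDH16 were detected on no array and LHX1, WT1 and EYA1 on all 12. Of the 4 past the detection rule, over NC 3 fell in AIRE1, 1 rose and 2 fell in AIRE2, and 1 fell in AIRE-D312A. Of all genes, 3.06%, 3.52% and 1.32% fell in AIRE1, AIRE2 and AIRE-D312A, and 5.93% rose in AIRE2. LHX1, a kidney developmental factor, fell in all 3 lines, at -0.89, -0.98 and -0.69 log2. EYA1, another such factor, stood at -0.49, 0.51 and -0.16 for AIRE1, AIRE2 and AIRE-D312A, of which the mutant line was not called. SIX2, a nephron progenitor factor, averaged 4.78, 4.82, 5.25 and 5.23 log2 in AIRE1, AIRE2, AIRE-D312A and NC, at the detection limit in the clones, and was called lower in both. The part of these shifts in the keratin results was not tested either.

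The genes most like each keratin over the 12 arrays, by Pearson correlation of log2 intensity, were named as a description, since the arrays share 4 lines. For KRT8 they were KRT8P47, VAMP7 and STMN2 (r = 0.986, 0.958 and 0.951), and for KRT18 WDR70, FGF9 and TRPS1 (0.940, 0.909 and 0.905). FGF9 averaged 7.2 ± 0.17 log2 in AIRE1, 8.16 ± 0.09 in AIRE2, 8.13 ± 0.12 in AIRE-D312A and 7.35 ± 0.03 in NC (SD, n = 3 each), the same low and high lines as KRT18. For KRT10 they were NDUFS7, TMEM171 and ZBTB48 (0.951, 0.941 and 0.934). For KRT27 they were the fetal globin genes HBG1 and HBG2 and the zinc finger gene ZCCHC12 (0.988, 0.988 and 0.983). HBG1 averaged 6.64 ± 0.34 in AIRE1, 6.97 ± 0.32 in AIRE2, 4.42 ± 0.14 in AIRE-D312A and 4.48 ± 0.07 in NC and shared the detection pattern of KRT27. HBG1 and HBG2 are near-identical, so their probes may read one another.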

How the data were processed

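RNA of 4 HEK293 lines, extracted with Trizol and DNase-treated per the labels' protocols, was measured on 3 Illumina arrays per line. Per the submitters' processing notes, BeadStudio 3.1.3.0 was used. The deposited files hold, per the file headers, an average intensity per probe on a linear scale and a detection p-value; the intensities were not normalised. The deposited detection p-value column of AIRE-D312A replicate 3 was 100% equal to that of AIRE1 replicate 3 and was not used. Its detection limit and negative-control mean were predicted from its 40th percentile. On the other 11 arrays this gave the same status, detected or not detected, for 98.87 to 99.95% of all probes.

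Intensities were corrected by normexp with negative controls inferred from detection p-values (offset 16), quantile-normalised and log2-transformed (limma 3.58.1, R 4.3.3). Probes were named through the platform annotation, which gave 1 symbol for 24782 probes, several for 0 and none for 23919; gene IDs of 24154 matched RefSeq (GRCh38.p14, used for names, gene order and promoter sequences). The brightest probe past the detection rule stood for its gene. A single limma model with 1 coefficient for each line took in the 12 arrays, and p-values were adjusted by Benjamini-Hochberg within a contrast. The code was tested on simulated data. As a check of pairing, same-numbered arrays of different lines were compared by their deviations from the line mean. There r was 0.332 to 0.61 for number 1, 0.744 to 0.848 for number 2 and 0.591 to 0.752 for number 3 (6 pairs each). For arrays of another number and another line r was -0.743 to 0.529 (36 pairs), which overlaps number 1. The numbers, read from the array files, thus pair the arrays clearly for numbers 2 and 3 and less clearly for number 1.

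The keratin members and the lists were chosen with earlier results of these data known. Named genes were all members, all other keratins past the detection rule, list genes called in at least 2 of the 3 contrasts over NC (or the one with the smallest adjusted p), and the 3 genes most correlated with each member. The authors' value table, an intensity per line, equalled a rescaled mean of replicates 1 and 3 and served as an alternative only; no source used here explains its scale factors. Other alternatives were the replicate block, median centring, an offset of 50, no background correction, other detection filters, the mean of probes, and each array left out.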

Additional observations from a re-analysis of the deposited data

Results flagged for a closer look

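Some keratin responses differed between lines, as tested by the contrast between those lines in the limma fit. KRT8 was higher in AIRE1 than in AIRE-D312A by 1.56 log2 and in AIRE2 than in AIRE-D312A by 1.75 log2, while its mean in AIRE-D312A lay below that in NC. KRT27 was higher than in AIRE-D312A by 1.68 log2 in AIRE1 and by 2.08 log2 in AIRE2. These KRT27 values are a description, since it entered the test through the clones and was detected on no AIRE-D312A array, and they are no bounds. KRT18 differed from AIRE-D312A by -1.14 log2 in AIRE1 and was higher in AIRE2 than in AIRE1 by 1.04 log2.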

How the results depend on the processing

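The replicate block called 3 further differences, KRT8 in AIRE1 over NC (0.77 log2) and in AIRE-D312A over NC (-0.80) and KRT18 in AIRE1 over NC (-0.38). It changed no other call of the 4 keratin genes in the fit (KRT8, KRT18, KRT10 and KRT27). The members called became 3 in AIRE1 over NC and 2 in AIRE-D312A over NC, and the genes called 2722, 3183 and 1964 over NC in AIRE1, AIRE2 and AIRE-D312A, 1170 and 1870 in AIRE1 and AIRE2 over AIRE-D312A, and 1596 in AIRE2 over AIRE1. Under median centring the all-gene median in AIRE1 over NC was 0.14 log2, and KRT8 was called there (0.95), for 2 members. It left 589 and 229 genes called in AIRE2 and AIRE-D312A over NC, 159 and 96 in AIRE1 and AIRE2 over AIRE-D312A, and 55 in AIRE2 over AIRE1. KRT8 in AIRE2 over NC (0.95) was not called without a detection filter or with detection on all 12 arrays, where more or fewer genes were tested. Detection on all 12 arrays drops KRT27 by construction and left 0 and 1 members called over NC in AIRE1 and AIRE2 and 1 in AIRE2 over AIRE-D312A, with 138 and 153 genes called in AIRE1 and AIRE2 over AIRE-D312A.

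The authors' value table, as log2 of the value plus 16 and with no test, moved KRT8 to 0.32 in AIRE1 and -1.25 in AIRE-D312A over NC, KRT18 to -0.60 and 0.50, and KRT27 to 2.04 in AIRE1, 2.65 in AIRE2, 0.34 in AIRE-D312A over NC and 2.30 in AIRE2 over AIRE-D312A. It turned KRT10 over NC, not called, to -0.23, -0.28 and -0.17 in AIRE1, AIRE2 and AIRE-D312A. In that table the mean of replicates 1 and 3 was scaled by 0.815, 0.882 and 0.825 in AIRE1, AIRE2 and AIRE-D312A. In NC the factor was 1.179. The part of these factors in the shifts was not tested. No called value changed direction under any alternative.

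Leaving out each array in turn gave, over NC, KRT8 differences of 0.52 to 0.91 in AIRE1, 0.71 to 1.25 in AIRE2 and -1.04 to -0.66 in AIRE-D312A, and KRT18 differences of 0.57 to 0.78 in AIRE2 and 0.64 to 0.90 in AIRE-D312A. It gave 1.48 to 1.70 for KRT8 in AIRE1 over AIRE-D312A, and in AIRE2 over AIRE1 0.96 to 1.18 for KRT18 and 0.23 to 0.61 for KRT27. Members called ranged from 1 to 2 in AIRE1 and in AIRE2 over NC, and from 0 to 2 in AIRE-D312A over NC and in AIRE2 over AIRE1. Genes called ranged from 593 to 1238, 732 to 1593 and 220 to 635 over NC in AIRE1, AIRE2 and AIRE-D312A, from 108 to 373 and 86 to 726 in AIRE1 and AIRE2 over AIRE-D312A, and from 95 to 475 in AIRE2 over AIRE1. Offset 50, no background correction and the mean of probes changed no call of these 4 keratin genes, but offset 50 brought KRT27 in AIRE1 and AIRE2 to 0.91 and 1.20 over NC and to 0.89 and 1.18 over AIRE-D312A, since an offset shrinks log differences near the background. KRT7 and KRT19 lie at the background, where differences cannot be measured.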

Other observations

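Other intermediate filament genes were read beside the keratins. Of 16 on the array, 13 were measured, and over NC 3 rose and 3 fell in AIRE1, 2 rose and 1 fell in AIRE2, and 2 rose and 1 fell in AIRE-D312A, where 5.21%, 5.93% and 2.64% of all genes rose and 3.06%, 3.52% and 1.32% fell in AIRE1, AIRE2 and AIRE-D312A. The lens filament gene BFSP1 was higher in all 3 lines, by 0.75, 0.85 and 0.67 log2, and the neuronal gene INA by 0.83, 1.25 and 1.08. The neurofilament gene NEFM was at -3.66, -3.14 and -3.66 log2. Vimentin (VIM), the mesenchymal filament gene, was at -1.39 in AIRE1 (limma adjusted p = 0.008). The synemin gene SYNM was higher by 0.40 log2 in AIRE1 over NC and by 0.40 in AIRE1 over AIRE-D312A (limma adjusted p = 0.018 and 0.048), and NEFL was at -0.73 in AIRE1 over NC (limma adjusted p = 0.013). VIM, SYNM and NEFL were named after their values were seen.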
